A study of Mus musculus with 8 samples.

Results

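The 10 genes described here are the microglia genes Cx3cr1, P2ry12, Csf1r, C1qa, C1qb, C1qc, Aif1, Tmem119, Trem2 and Fcrls, picked by name from the 54752 genes of the count tables and all found there. They were measured by poly-A RNA-seq in 8 brains of wild-type C57BL/6 mouse fetuses (C57BL/6Slac in the study's methods) at E15.5 (embryonic day). The 4 stress brains, F34 and F35 from females and M28 and M29 from males, came from a dam exposed in pregnancy to chronic unpredictable mild stress, a changing series of mild stressors. The 4 control brains, F36 and F37 from females and M30 and M31 from males, came from a dam kept in the home cage. Each group came from a single litter, so litter and stress cannot be told apart, and the spread behind every test below is the spread between littermates. None of the animals carried a transgene or a deletion, and no batch is named for these libraries.

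Microglia are the resident macrophages of the brain. They descend from yolk sac progenitors, enter the neural tissue early in gestation and depend on the receptor Csf1r for their survival. They read their surroundings through surface receptors, of which Cx3cr1 binds fractalkine from neurons, P2ry12 binds ADP and guides process movement, and Trem2 binds lipids and lipoproteins. They also make the chains of C1q, the starter of the classical complement cascade, which marks synapses and debris for uptake. Tmem119, P2ry12 and Fcrls are used to tell microglia from other macrophages, and Aif1 encodes the classic microglial stain Iba1.

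All 10 genes were detected in every brain, at 12 to 351 counts per gene and brain out of 25320109 to 29105710 counts per library. In CPM (counts per 1000000 counts of the library, scaled by edgeR's TMM factors), mean levels over the 8 brains ran from 0.824 CPM for Aif1 to 10.6 CPM for Csf1r. No microglia gene passed the test between stress and control (0 of 10, edgeR quasi-likelihood test, Benjamini-Hochberg adjusted p under 0.05), 0 of 10 had an unadjusted p under 0.05, and DESeq2 likewise called 0. Across all 17865 genes tested, 2458 were called, which is 13.8% (6.49% higher and 7.27% lower in stress), and 4800, or 26.9%, had an unadjusted p under 0.05. Among the 5398 genes whose mean CPM lay in the range of the microglia genes, 379 were called, or 7.02%. In bulk tissue, fewer cells of a type and less RNA per cell cannot be told apart, so the levels below speak of transcripts and not of cell numbers.

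Among the 4 receptors, Csf1r, which binds the growth factors Csf1 and Il34, had the most counts. Its levels were 9.97, 11.5, 9.43 and 10.4 CPM in control F36, F37, M30 and M31 and 11.9, 9.28, 12.2 and 9.91 CPM in stress F34, F35, M28 and M29. The stress brains held both the lowest and the highest value, and the groups overlapped. The difference, given throughout as log2 fold change of stress over control, was 0.07 ± 0.08 (SE, n = 4 brains per group, edgeR adjusted p = 0.637). The reads of this gene were counted without regard to strand, and 17.8% of its exon bases overlap Hmgxb3 on the other strand.

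Cx3cr1, the fractalkine receptor, had nearly equal group means. It stood at 7.64, 7.23, 6.68 and 6.19 CPM in the control brains and at 6.77, 7.62, 6.00 and 7.15 CPM in the stress brains, in the same order of animals. Both groups covered nearly the same range. Its log2 fold change was -0.01 ± 0.09 (SE), and the 95% confidence interval, -0.18 to 0.17, corresponds to a change between -12.0% and 12.2%.

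P2ry12, the ADP receptor, was the only microglia gene whose groups did not overlap. The 4 control brains lay close together at 4.88, 4.87, 4.90 and 4.82 CPM. The stress females were lower, at 4.02 and 3.79 CPM, while the stress males, at 4.71 and 4.70 CPM, lay just under the lowest control. The group means were 4.86 ± 0.0350 CPM and 4.30 ± 0.469 CPM (SD, n = 4). The log2 fold change was -0.18 ± 0.10 (SE, 95% interval -0.38 to 0.02, edgeR adjusted p = 0.257). The exact two-sided permutation test on log2 CPM gave p = 0.0286, the smallest that 4 against 4 brains can give, but 2933 of all 17865 genes, or 16.4%, were likewise without overlap (8.22% with stress lower). The share of 1 in 10 microglia genes, with stress lower, lies between these background shares and sets the microglia genes apart from neither. The separation of 4.71 from 4.82 CPM rests on 134 to 138 counts per brain on either side, which is within counting error.

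Trem2, the lipid receptor that signals through the adaptor Tyrobp, had few counts, 37 to 61 per brain. Its values were 1.64, 1.55, 2.21 and 1.69 CPM in the control brains and 1.77, 1.501, 1.29 and 1.52 CPM in the stress brains. Control M30 was the highest and the other brains overlapped. At -0.22 ± 0.17 (SE) it had the most negative estimate of the 10 genes, with a 95% interval of -0.56 to 0.12 and an adjusted p of 0.437 by edgeR. Tyrobp itself differed by 0.02 ± 0.14 (SE, edgeR adjusted p = 0.939).

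The 3 C1q chains are encoded by neighbouring genes on mouse chromosome 4 (mm10), all on the minus strand: C1qb at chr4:136880129-136886187, C1qc at chr4:136889804-136893065 and C1qa at chr4:136895917-136898803. The locus spans 18675 bases, with 3616 bases between C1qb and C1qc and 2851 bases between C1qc and C1qa. A working C1q molecule needs all the chains, so their levels are set side by side here.

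C1qa stood at 4.55, 4.62, 3.66 and 4.36 CPM in the control brains and at 4.45, 3.40, 3.83 and 4.84 CPM in the stress brains. C1qb stood at 5.79, 5.11, 4.90 and 5.55 CPM in the control brains and at 5.18, 4.50, 5.58 and 5.04 CPM in the stress brains. C1qc stood at 5.02, 4.16, 4.86 and 4.46 CPM in the control brains and at 5.29, 4.50, 4.74 and 3.87 CPM in the stress brains. The groups overlapped for each chain, and the brain at the bottom was F35 for C1qa and C1qb but M29 for C1qc. The log2 fold changes were -0.05 ± 0.12 for C1qa, -0.07 ± 0.10 for C1qb and -0.01 ± 0.11 for C1qc (SE, edgeR adjusted p from 0.700 to 0.973). The 3 chains summed to 14.3 ± 0.830 CPM in control and 13.8 ± 1.05 CPM in stress brains (SD, n = 4).

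Of the surface markers, Fcrls, an Fc receptor-like scavenger receptor, was the better counted, with 136 to 180 counts per brain. It gave 6.12, 5.75, 6.13 and 4.78 CPM in the control brains and 6.48, 5.41, 4.92 and 6.22 CPM in the stress brains, again with full overlap. Its log2 fold change was 0.02 ± 0.10 (SE, edgeR adjusted p = 0.931).

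Tmem119, a membrane protein that microglia gain as they mature, had 21 to 45 counts per brain. Its levels were 1.31, 1.09, 1.27 and 0.879 CPM in the control brains and 0.942, 0.830, 1.57 and 1.04 CPM in the stress brains. The stress group held both extremes, F35 below and M28 above. Stress and control differed by a log2 fold change of -0.05 ± 0.21 (SE, edgeR adjusted p = 0.911).

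Aif1, the gene for the actin-bundling protein Iba1, was the scarcest, at 12 to 29 counts. It gave 1.06, 0.952, 0.907 and 0.562 CPM in the control brains and 1.01, 0.474, 0.802 and 0.829 CPM in the stress brains. The lowest control and the lowest stress brain both fell well under the rest of their groups. Aif1 had a log2 fold change of -0.14 with an SE of 0.24, and the 95% interval of -0.64 to 0.37 corresponds to a change between -35.9% and 29.1%.

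**Figure D1:**
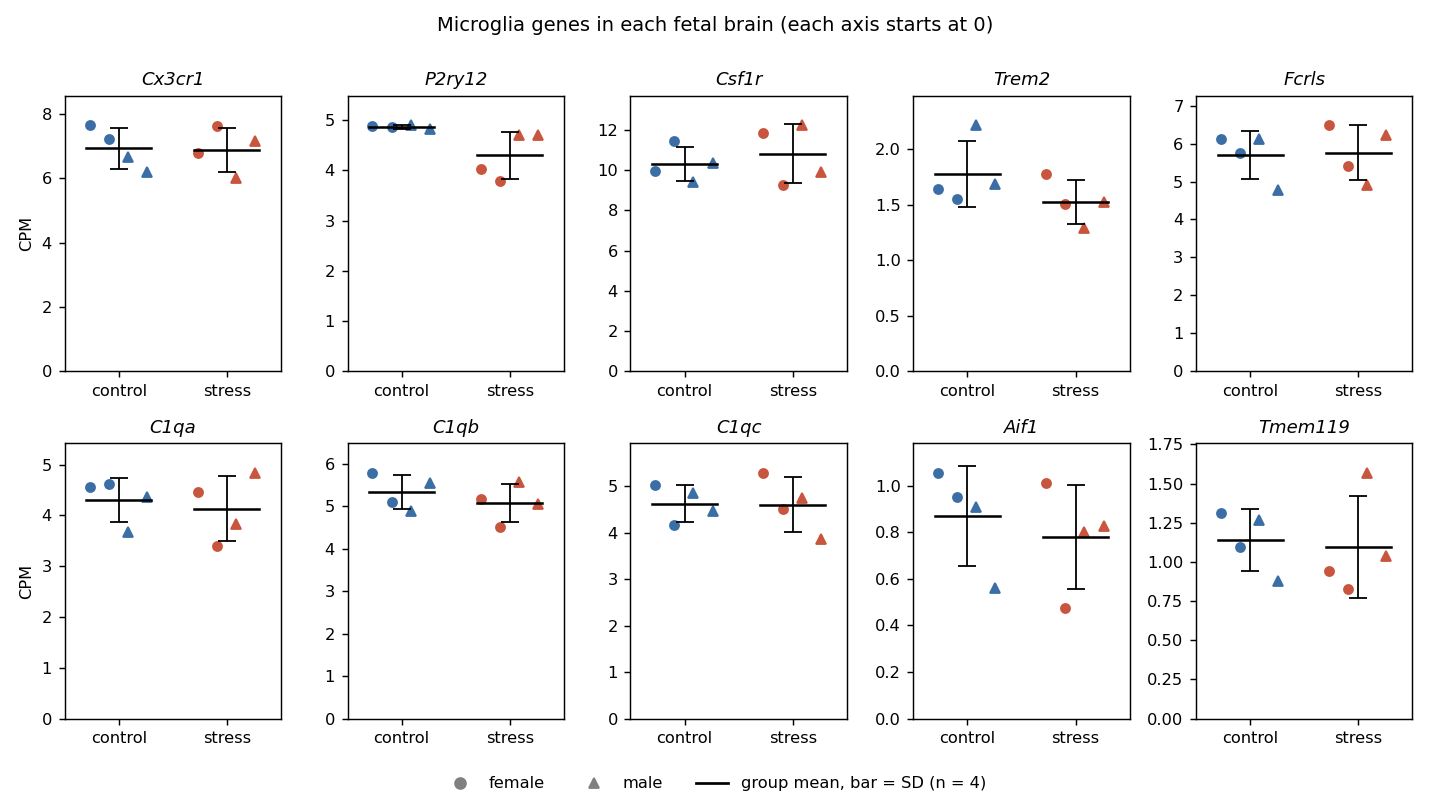
CPM of the 10 microglia genes in each brain (y axis, from 0; circles are females, triangles males), with the group mean and SD over 4 brains. Control and stress brains overlap for 9 genes, and for P2ry12 the stress males at 4.71 and 4.70 CPM lie just under the lowest control at 4.82 CPM.

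Added up, the 10 genes came to 48.0, 46.8, 44.9 and 43.7 CPM in the control brains and to 47.8, 41.3, 45.7 and 45.1 CPM in the stress brains. The sums were 45.8 ± 1.92 CPM in control and 45.0 ± 2.70 CPM in stress brains (SD, n = 4), a ratio of 0.981. Stress female F35, the shallowest library, had the lowest sum and the lowest level of 6 of the 10 genes. The median log2 fold change of the microglia genes was -0.05, beside 0.00 over all genes tested, and it was 0.03 when F35 was left out. Under the other scalings tried (DESeq2 size factors, upper quartile, library totals) no microglia gene changed sign.

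Levels can be compared between genes only per length of transcript, here as CPM per 1000 exon bases, averaged over the 8 brains. On that scale C1qb led with 4.79 ± 0.384 (SD, n = 8), followed by C1qa with 4.05 ± 0.495, and the ranges of these 2 neighbours overlapped. A gap separated them from Fcrls at 2.45 ± 0.270, C1qc at 2.39 ± 0.239, Csf1r at 2.16 ± 0.233, P2ry12 at 1.80 ± 0.169 and Cx3cr1 at 1.53 ± 0.136, where each gene overlapped the next. A second gap set apart Aif1 at 0.538 ± 0.136, Tmem119 at 0.482 ± 0.109 and Trem2 at 0.333 ± 0.0547, which overlapped one another in turn. C1qc thus lay below its locus neighbours on this scale. The exon length used is that of all annotated exons joined, 1931 bases for C1qc against 1088 for C1qb and 1040 for C1qa. For Trem2 it was 4946 bases, the longest of the 10. A gene whose main transcript is shorter than its joined exons is placed too low, so the ranks and gaps depend on this length.

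Over the 8 brains the coefficient of variation in CPM ran from 8.02% for C1qb to 25.3% for Aif1. Set against the spread of pure counting noise at each gene's mean count, the ratio lay between 0.966 and 1.85, and it was under 1.5 for 9 of the 10 genes. Csf1r, with the most counts, had the highest ratio, and at low counts such a ratio says little about how the animals themselves differed.

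The brains were also compared within each sex, 2 against 2, and by a sex by stress interaction. In females, 0 of the 10 microglia genes were called against 3.91% of 17969 genes tested. An unadjusted p under 0.05 was found for 1 of the 10, P2ry12, and for 3181 of the 17969 genes. P2ry12 had a log2 fold change of -0.32 ± 0.15 (SE, edgeR adjusted p = 0.253) there. In males, 0 were called against 8.49% of 18057 genes, and 0 had an unadjusted p under 0.05 against 3955 of the 18057. P2ry12 differed by -0.05 ± 0.14 (SE) in males. The interaction called 0 microglia genes, beside 0.0056% of all genes. At an unadjusted p under 0.05 there were 0 microglia genes, beside 1128 of 17865 genes. For P2ry12 the interaction was 0.27 ± 0.19 (SE, edgeR adjusted p = 0.869), so the female and male values were not shown to differ. The widest gaps between the sexes had wide errors too. Tmem119 was at -0.43 ± 0.29 in females and 0.28 ± 0.29 in males, Aif1 at -0.41 ± 0.34 and 0.15 ± 0.34, and Trem2 at 0.04 ± 0.23 and -0.47 ± 0.24 (SE), with interaction adjusted p-values of 0.829, 0.896 and 0.838 by edgeR. DESeq2 called 0 microglia genes in each of these fits. Between females and males over both groups, 0 microglia genes were called, beside 0.0896% of all genes. At an unadjusted p under 0.05 there were 0 of them, beside 1055 of 17865 genes.

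**Figure D2:**
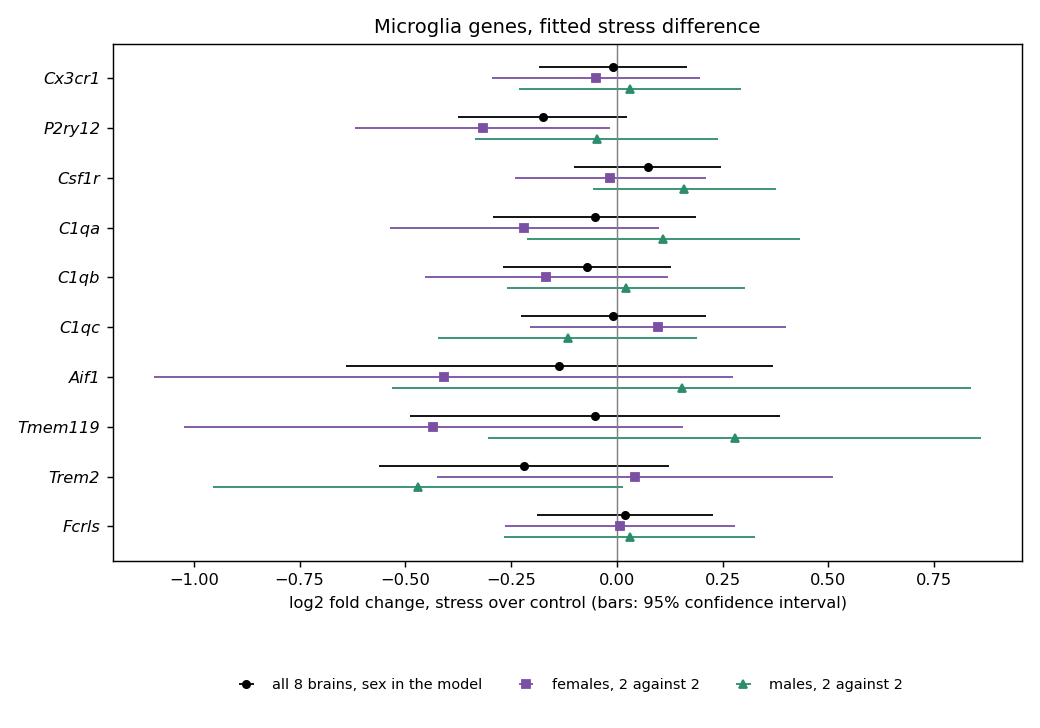
Log2 fold change of stress over control (x axis) for each microglia gene, with 95% confidence intervals, in all 8 brains and in each sex alone. Every interval over all 8 brains includes 0, and those of Aif1, Tmem119 and Trem2 are the widest.

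How small a difference these data could show depended on the level of each gene. The median SE of the microglia genes was 0.104 on the log2 scale, against 0.0574 over all genes tested. Called genes in the CPM range of the microglia genes had a median absolute log2 fold change of 0.39, and the smallest called there was 0.21. For 8 of the 10 microglia genes the 95% interval lay within -0.5 to 0.5, and Aif1 and Trem2 reached beyond it on the negative side. A difference smaller than these intervals was not detectable with these 8 brains at this depth.

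**Figure D3:**
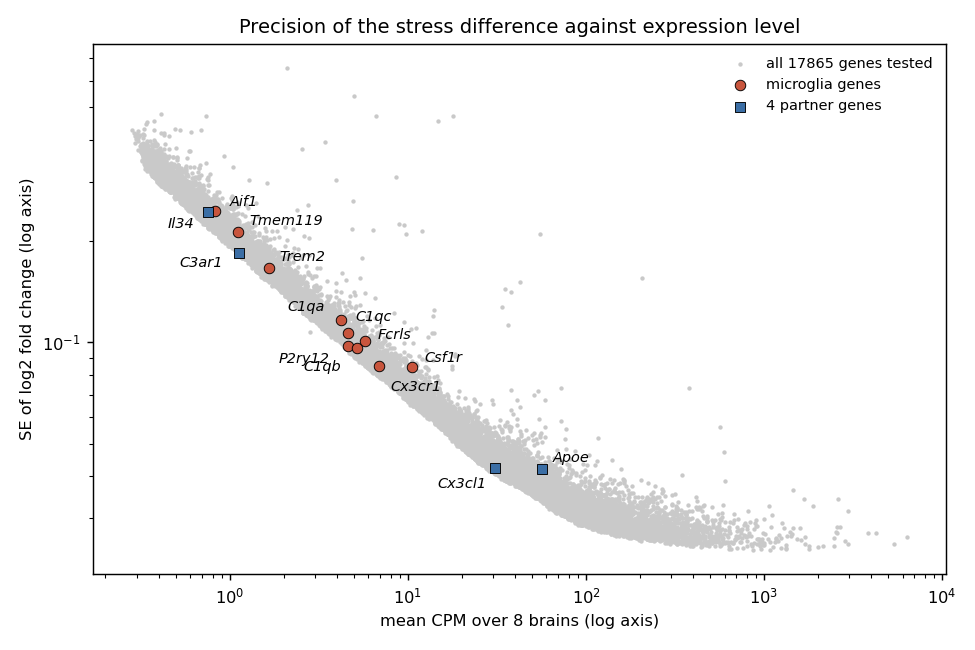
SE of the stress log2 fold change (y axis, log) against mean CPM (x axis, log) for 17865 genes tested, with the 10 microglia genes and 4 partner genes marked. The microglia genes lie on the general trend, from an SE of 0.24 for Aif1 to 0.08 for Csf1r, while Cx3cl1 and Apoe are measured more tightly at 0.04.

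Some regulatory sequence bears on the identity of these genes. PU.1, encoded by Spi1, is a factor that macrophages need and that binds purine-rich sites with a GGAA core. Spi1 itself stood at 0.886 ± 0.0696 CPM in control and 0.841 ± 0.0446 CPM in stress brains (SD, n = 4). In the RefSeq promoters (build GRCm38.p6), 7 of the 10 genes had an entry, and C1qa, Tmem119 and Csf1r had none. The letters AGGAAG were looked for in the 250 bases before the start, on both strands, and were found for P2ry12, C1qb, C1qc, Fcrls and Trem2, that is 5 of 7, where 29.5% of 32851 promoters hold them. The longer GAGGAAG, which contains the shorter one, was found for C1qc, Fcrls and Trem2, and in 10.6% of all promoters. Neither was in the window of Cx3cr1 or Aif1. The shorter letters occurred 4 times for Fcrls and 2 times for C1qc, and not all of these are shown. The C1qc stretch shown holds only the shorter letters. Its other match, 194 to 189 bases before the start, is the one within GAGGAAG. A match of letters is a description and not a binding site. The stretches around a match for the 5 genes are shown to let the contexts be compared, 5′ to 3′ along each gene, with the motif or its reverse complement in capitals.
P2ry12, chr3:59263002-59263067, minus strand: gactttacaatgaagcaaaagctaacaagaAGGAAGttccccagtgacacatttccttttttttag
Fcrls, chr3:87263632-87263697, minus strand: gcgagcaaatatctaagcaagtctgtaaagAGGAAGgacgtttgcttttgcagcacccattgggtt
C1qb, chr4:136886217-136886282, minus strand: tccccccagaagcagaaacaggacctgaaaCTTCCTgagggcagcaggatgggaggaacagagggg
C1qc, chr4:136893036-136893101, minus strand: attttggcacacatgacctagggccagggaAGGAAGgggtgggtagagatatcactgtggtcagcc
Trem2, chr17:48346330-48346395, plus strand: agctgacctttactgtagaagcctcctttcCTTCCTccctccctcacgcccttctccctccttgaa
In P2ry12 and C1qb the match lies at the same distance, 52 to 47 bases before the RefSeq start, but on opposite strands. The GENCODE genes used for counting have other ends, so these distances depend on the annotation. The Fcrls stretch lies within the counted gene (chr3:87250758-87263738), and the C1qc stretch partly overlaps its counted gene.

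The ligands and partners of these receptors are mostly made by neurons, glia and vessels, though microglia carry some of them, such as Nrros. Several of these genes differed between the groups. The list was chosen with earlier results of these data known, so its number of calls is a description. Of 22 such genes 21 were tested, 2 rose and 7 fell, with a median log2 fold change of -0.07, while DESeq2 called 5 of them, 1 higher and 4 lower. Counts of called genes in this and the following lists are to be read beside the 13.8% of all genes for edgeR and, for DESeq2, which called 1659, beside 9.29%.

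Cx3cl1, the fractalkine that Cx3cr1 binds, fell. It stood at 34.8, 34.1, 32.4 and 33.9 CPM in the control brains and at 29.8, 29.5, 27.0 and 26.2 CPM in the stress brains. Every stress brain lay under every control brain. The log2 fold change was -0.27 ± 0.04 (SE, edgeR adjusted p = 0.000137), and the call held in all 15 alternative settings. Its receptor on microglia, as given above, differed by -0.01 ± 0.09 (SE).

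The growth factors of Csf1r did not pass the test. Csf1 was at 8.22 ± 0.721 CPM in control and 8.51 ± 0.0904 CPM in stress brains (SD, n = 4), with a log2 fold change of 0.05 ± 0.08 (SE, edgeR adjusted p = 0.729). Il34, the neuronal ligand, had only 10 to 29 counts per brain. Its values were 0.692, 0.952, 1.05 and 0.844 CPM in the control brains and 0.362, 0.632, 0.871 and 0.587 CPM in the stress brains, with an overlap through M28. The log2 fold change was -0.53 ± 0.24 (SE, edgeR adjusted p = 0.159).

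Transcripts of apolipoproteins that Trem2 binds were lower, and no protein was measured. Apoe, the main lipid carrier of the brain, fell from 61.8 ± 2.74 CPM to 50.9 ± 3.74 CPM (SD, n = 4, log2 fold change -0.28 ± 0.04 SE, edgeR adjusted p = 7.99e-05) without overlap. Clu, another apolipoprotein, which the naming rule did not cover and which was picked after its values were seen, fell by 0.14 on the log2 scale (SE 0.04, edgeR adjusted p = 0.0325), a call that 7 of 15 alternatives lost. Gas6, a bridge between dying cells and the uptake receptors Axl and Mertk, fell from 26.6 ± 0.343 CPM to 22.8 ± 0.522 CPM (SD, n = 4, edgeR adjusted p = 0.000901), also without overlap. Its receptor Axl, picked after its values were seen, rose by 0.16 ± 0.05 (SE, edgeR adjusted p = 0.0334), a call that 9 of 15 alternatives lost.

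TGF-β signals keep microglia in their resting identity. The ligand Tgfb1 was at 3.67 ± 0.179 CPM in control and 4.13 ± 0.119 CPM in stress brains (SD, n = 4). Its groups were apart, but the log2 fold change of 0.17 ± 0.10 (SE) did not pass the test (edgeR adjusted p = 0.308). The receptor Tgfbr1 rose by 0.12 ± 0.03 (SE, edgeR adjusted p = 0.0147), losing the call in 4 of 15 alternatives, and Tgfbr2 was at -0.07 ± 0.07 (SE, edgeR adjusted p = 0.577). At 134 CPM in control brains, Tgfbr1 stood far above any microglia gene, and neural cells express it too. Nrros, which holds latent TGF-β on microglia and was likewise picked after its values were seen, fell by 0.43 on the log2 scale (SE 0.13, edgeR adjusted p = 0.0217), and 6 of 15 alternatives lost that call, DESeq2 among them (adjusted p = 0.0844).

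Of the genes for signals that restrain microglia and their receptors, Cd200, Sirpa and Cd47 all had negative estimates, and only the calls were mixed. Cd200, a neuronal surface protein read by a myeloid receptor, fell by 0.09 on the log2 scale (SE 0.03, edgeR adjusted p = 0.0458), a call lost in 10 of 15 alternatives. Sirpa, the receptor of Cd47, fell by 0.16 (log2, SE 0.04, edgeR adjusted p = 0.00632) and held its call in all 15. At 56.4 CPM in control brains, Sirpa stood far above any microglia gene. Cd47 was at -0.05 ± 0.03 (SE, edgeR adjusted p = 0.380).

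**Figure D4:**
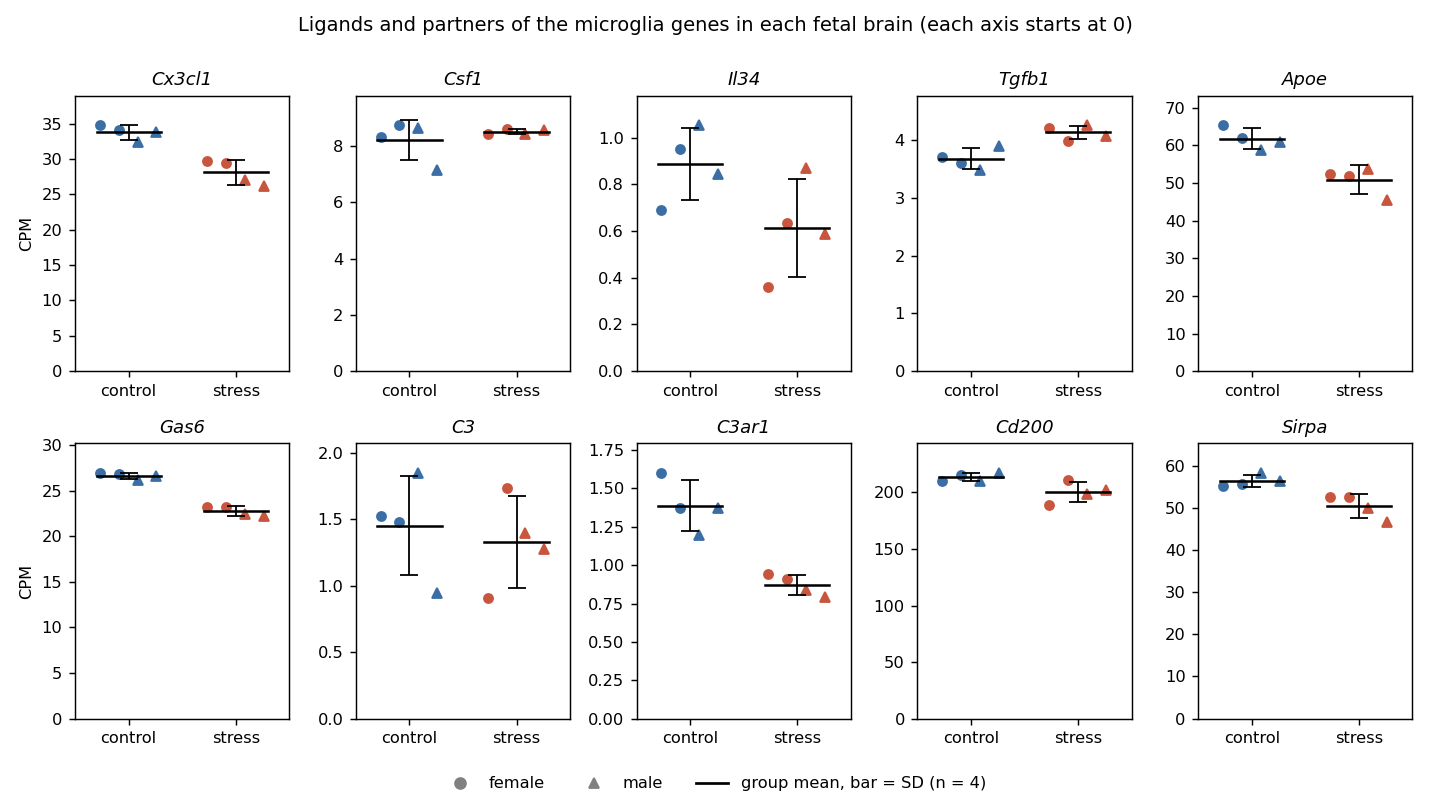
CPM of 10 ligand, partner and complement genes in each brain (y axis, from 0; circles are females, triangles males), with the group mean and SD over 4 brains. Cx3cl1, Apoe, Gas6, C3ar1 and Sirpa show every stress brain under every control brain, while Csf1, Il34, C3 and Cd200 overlap.

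Of 28 further genes of the complement system or tied to it, 19 were tested, 2 rose and 4 fell (median log2 fold change -0.09). Of the proteases that C1q activates, C1ra (0 to 3 counts per brain) and C1s1 (3 to 10) were under the filter, while C1s2 (12 to 28) was at 0.21 ± 0.26 (log2, SE, edgeR adjusted p = 0.678). C4b (0 to 3 counts) was under it too, and C4a (47 to 84) was at -0.15 ± 0.14 (log2, SE, edgeR adjusted p = 0.548). The C1s genes, and likewise the C4 genes, are close copies, so how reads were split within each pair is uncertain. C3, the protein that tags targets downstream, was at 1.45 ± 0.373 CPM in control and 1.33 ± 0.343 CPM in stress brains (SD, n = 4), with a log2 fold change of -0.13 ± 0.21 (SE, edgeR adjusted p = 0.746).

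C3ar1, the receptor for the C3a fragment, which microglia carry, fell. Its values were 1.602, 1.38, 1.20 and 1.37 CPM in the control brains and 0.942, 0.909, 0.837 and 0.795 CPM in the stress brains. All stress brains lay under all control brains, at 23 to 44 counts each. The log2 fold change was -0.67 ± 0.18 (SE, edgeR adjusted p = 0.0158), but the call was lost with DESeq2 (adjusted p = 0.100) and without control F36 or M31 (adjusted p = 0.0556 and 0.05001 by edgeR).

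The other complement genes with calls are made by many cells. Masp1, a protease of the lectin pathway, rose by 0.15 ± 0.03 (SE, edgeR adjusted p = 0.00237). Calr, a chaperone that also binds C1q, fell by 0.14 on the log2 scale, Lrp1, an uptake receptor, by 0.13, and Csmd2, a complement inhibitor-like protein of neurons, by 0.14 (edgeR adjusted p from 0.000846 to 0.011), and Csmd2 lost its call without control M30 or stress M29 (adjusted p = 0.0571 and 0.0768 by edgeR). Serping1, the C1 inhibitor, which was picked after its values were seen, rose by 0.19 ± 0.06 (SE, edgeR adjusted p = 0.0457), a call that 11 of 15 alternatives lost. The integrin chains of complement receptor 3 did not pass: Itgb2 was at -0.56 ± 0.30 and Itgam at -0.29 ± 0.25 (SE, edgeR adjusted p = 0.244 and 0.504), and 68.7% of the exon bases of Itgam overlap the gene model Gm49368.

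A list of 18 further genes that are used as microglia markers had 15 tested, with 4 higher and 2 lower, and a median log2 fold change of 0.12. The 3 genes of this list with the highest level, Tgfbr1, Sall1 and Golm1, were among those that rose, and Tgfbr1 is also counted among the ligands and partners. Golm1, at 37.2 ± 1.19 CPM in control and 43.8 ± 1.45 CPM in stress brains (SD, n = 4), and Sall1, a transcription factor that neural progenitors also use, at 56.1 ± 1.30 and 62.7 ± 3.70 CPM, were apart between the groups (edgeR adjusted p = 0.000248 and 0.0035). Of the exon bases of Golm1, 29.3% overlap Naa35 on the other strand. Rgs10, a regulator of G-protein signals, fell by 0.32 on the log2 scale (SE 0.07, edgeR adjusted p = 0.00317). Olfml3 rose by 0.33 ± 0.10 and Crybb1 fell by 0.72 (log2, SE 0.21), both picked after their values were seen and both uncalled by DESeq2 (adjusted p = 0.125 and 0.0981).

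Other genes named from that list did not pass. Gpr34, a lysophospholipid receptor, was at 2.08 ± 0.263 CPM in control and 1.99 ± 0.0504 CPM in stress brains (SD, n = 4). Siglech was at 1.34 ± 0.162 and 1.54 ± 0.265 CPM. Their edgeR adjusted p-values were 0.820 and 0.520.

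Genes that microglia share with other myeloid cells were likewise without a call, 0 of 28 tested with edgeR (2 at an unadjusted p under 0.05) and 0 with DESeq2, and their median log2 fold change was -0.04. Irf8, a factor needed for microglial development, was at 0.14 ± 0.16, the common leukocyte antigen Ptprc at -0.09 ± 0.21 and the lysosomal Cd68 at -0.14 ± 0.12 (SE, edgeR adjusted p from 0.478 to 0.835). Of 15 tested genes of a phagocytic, lipid-handling state, 0 were called by either tool (1 at an unadjusted p under 0.05 in each). Of 10 tested inflammation genes 1 was called by edgeR, Nfkbia, the inhibitor of NF-κB, which fell by 0.16 (log2, SE 0.05, edgeR adjusted p = 0.0442, lost in 11 of 15 alternatives), and 0 by DESeq2. At an unadjusted p under 0.05 there were 4 of the 10 with edgeR, beside 26.9% of all genes, and 1 with DESeq2. The 20 genes of that list summed to 57.6 to 59.9 CPM in control and 54.7 to 56.6 CPM in stress brains. A further 10 inflammation genes, among them Il1b, Il6 and Tnf, were under the filter on low counts.

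**Figure D5:**
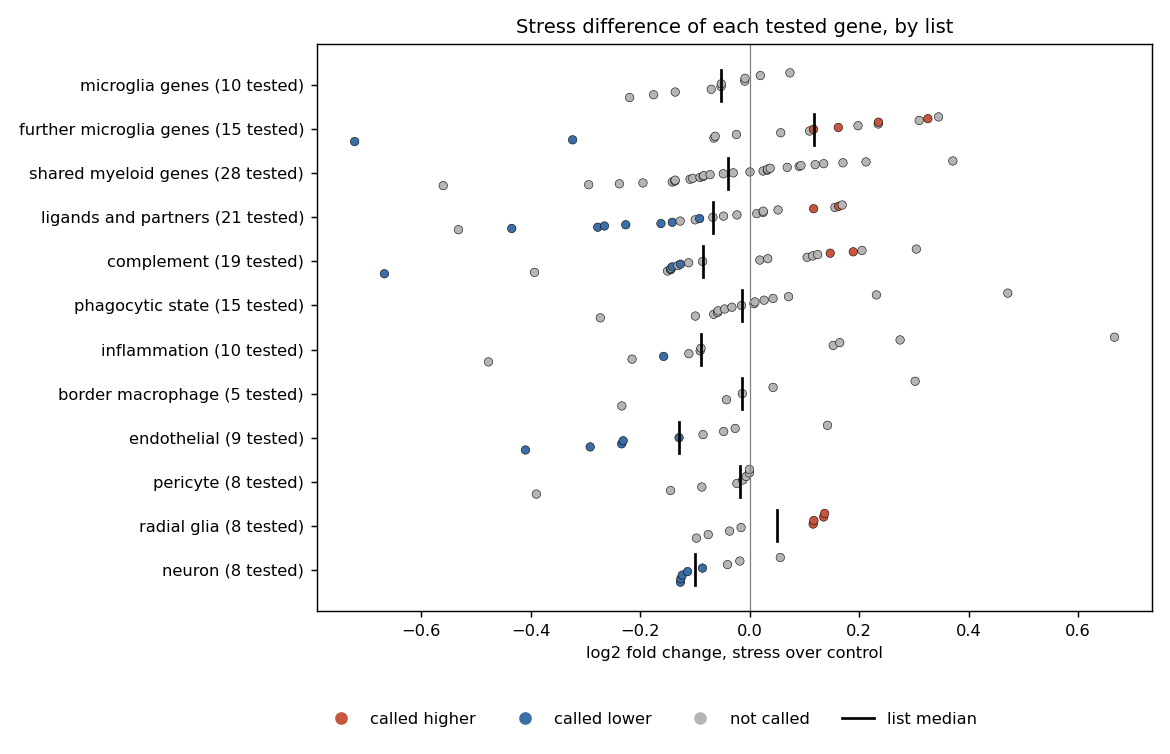
Log2 fold change of stress over control (x axis) for every tested gene of 12 lists (rows), coloured by call, with a bar at the list median. No gene is called among the 10 microglia genes or the 28 shared myeloid genes tested. Calls number 6 of 15 further microglia genes, 9 of 21 ligand and partner genes, 6 of 19 complement genes and 5 of 9 endothelial genes. Neuronal genes have 5 of 8, radial glia genes 4 of 8 and inflammation genes 1 of 10, beside 13.8% of all genes tested.

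Markers of other cells place these values in the tissue. Of 14 genes of macrophages at the brain's borders 5 were tested and 0 called (0 at an unadjusted p under 0.05, 0 by DESeq2), with summed levels of 14.5 to 16.0 CPM in control and 14.1 to 16.0 CPM in stress brains, and Lyve1, Cd163 and Cbr2 had 0 to 8 counts. Blood myeloid and lymphoid markers summed to 3.73 to 4.22 CPM in control and 4.43 to 4.90 CPM in stress brains, with Ccr2, S100a8 and Mpo at 0 to 7 counts and Prtn3 giving most of the sum (0.28 ± 0.11 SE in log2, edgeR adjusted p = 0.107). Stress brains were lower for 5 of 9 endothelial genes (Flt1 -0.41, Kdr -0.29, Esam -0.23, Cldn5 -0.13, and Tek -0.23, named outside the rule, of which DESeq2 called 2 and Esam, Cldn5 and Tek lost their calls in 4, 7 and 8 of 15 alternatives) and for 5 of 8 neuronal genes (such as Gap43 -0.12), and higher for 4 of 8 radial glia genes (such as Pax6 0.14). The log2 fold changes of the radial glia list had a median of 0.05 and reached down to -0.10. Those of the neuronal list had a median of -0.10 and reached up to 0.06. DESeq2 called 3 radial glia genes and 4 neuronal genes. Of 10 tested erythroid genes Hba-x and Hbb-y rose by 1.09 and 0.84 (log2) and Hbb-bs fell by 0.14 (a call lost without control F37 or stress F34, edgeR adjusted p = 0.0770 and 0.0547), and 0 of 8 pericyte genes were called (2 at an unadjusted p under 0.05, 0 by DESeq2). Of 7 tested choroid plexus genes 2 were called, Ttr and Otx2, both higher, and DESeq2 called 1. The log2 fold changes of that list had a median of 0.05 and reached down to -0.37, and 1 gene had every stress brain under every control brain. Ttr reached 29.9 CPM in F34, against 0.564 to 6.95 CPM in the other brains, and Otx2 was higher by 0.19 ± 0.04 (SE). Of 6 tested meningeal genes 3 were called higher and 1 lower. The collagens Col1a1, Col1a2 and Col3a1 were highest in M28, at 11.7, 21.8 and 21.3 CPM, and Pdgfra fell by 0.31 (log2). Without F34 or M28 the number of called microglia genes remained 0, and the part of these other cells in the values of the partner genes was not tested.

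The genes whose pattern over the 8 brains was most like the mean log2 CPM of the microglia genes were Sema3f (r = 0.971), Cnppd1 (0.966), Meis3 (0.962), Drap1 (0.961) and Tfpt (0.960). They head all other tested genes over just 8 brains from a pair of litters, so the values are a description. Whether the 10 genes themselves varied together cannot be read from their correlations. For 9 of the 10 the spread was under 1.5 times that of pure counting noise, and such noise weakens correlations. Of the 45 pairs of these 10 genes, 29 had a positive correlation over the 8 brains. The median r was 0.205, with a range from -0.513 for Cx3cr1 with Csf1r to 0.672 for Aif1 with Fcrls.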

How the data were processed

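The authors trimmed the paired reads with Trim Galore, aligned them to mm10 with TopHat2 (version 2.1.1) and counted them on GENCODE exons with featureCounts (version 1.6.3), with no strand option. The deposited values are raw counts per gene and brain. The labels gave group and sex, the study's sample table the litter. Low genes were removed with filterByExpr (minimum count 10), libraries scaled by TMM, and stress tested with the quasi-likelihood test of edgeR 4.0.16 (R 4.3.3, limma 3.58.1), sex being a term of the model. Adjustment by Benjamini-Hochberg covered all genes tested. Errors were taken from the fold change and F value, and log2 CPM used a prior count of 2. Females and males were also fitted alone, and an interaction over all 8 brains. Alternatives were DESeq2 1.42.0, other scalings, no filter, other models and each brain left out. The members and gene lists were chosen with earlier results of these data known. All 10 members were named with every brain, from other lists a fixed set and up to 4 called genes with the smallest p. Some genes of that set are not reported here. Promoters are RefSeq's. Libraries held 25320109 to 29105710 counts, and intervals cover the spread between littermates, 4 per group.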

Additional observations from a re-analysis of the deposited data

Results flagged for a closer look

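Of 146 groups of 4 brains examined over the named genes, 4 held a brain far from the other 3, where chance gives about 1 in 20 groups. Itgam stood at 0.711 CPM in stress F35, above 0.488 to 0.518 CPM in the other stress brains. Nrros, which stabilises latent TGF-β on microglia, was at 3.16 CPM in the same brain, above 2.46 to 2.56 CPM in the others. Col3a1 stood at 8.63 CPM in control F36, above 4.72 to 4.83 CPM in the other controls. Rbfox3 was at 73.45 CPM in stress M29, below 77.2 to 77.4 CPM in the others. None of the 10 microglia genes and neither group's summed level of them met this criterion.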

How the results depend on the processing

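No microglia gene was called in any of 5 fits under any of 51 alternative settings. In the fit over all brains, 7 of the 10 changed the sign of an uncalled estimate in at least 1 of 15 alternatives, 17 of 150 values in all, each time when a brain was left out, and values stayed between -0.33 and 0.15 with adjusted p of 0.223 or more. The number of genes called over all brains was 2458, and 1590 to 2365 with a brain left out (1590 without stress M29). In females it was 702, 125 with DESeq2, and 155 to 1249 with a brain left out (155 without control F36, 225 without F37, 1249 without stress F35). In males it was 1533, 377 with DESeq2, 0 without the low-count filter (3585 at an unadjusted p under 0.05), and 557 to 1555 with a brain left out (720 without control M31, 557 without stress M29). The interaction called 1 gene, 2 with DESeq2, 37 without the filter, and 0 to 6 with a brain left out. The sex effect called 16 genes, 64 without the filter, and 11 to 23 with a brain left out. The cause of these moves was not tested. Calls of Cx3cl1, Apoe, Gas6, Sirpa, Golm1, Sall1, Rgs10, Calr, Lrp1 and Masp1 held in all 15 alternatives, and Nrros lost its call in 6. By list, over the alternatives, called genes numbered 4 to 9 of the ligands and partners (9 as reported), 3 to 6 of the further microglia genes (6), 4 to 6 of the complement genes (6), 2 to 5 of the endothelial genes (5), 2 to 5 of the neuronal genes (5), 1 to 6 of the meningeal genes (4), 1 to 2 of the choroid plexus genes (2) and 0 to 1 of the shared myeloid (0) and inflammation genes (1). Radial glia genes had 3 to 5 calls over the same alternatives (4 as reported), with 1 called lower without control M31. The collagens and Ttr lost their calls with DESeq2. No paired analysis was possible because the groups share no replicate numbers. Genes of few counts, Aif1, Tmem119 and Trem2 above all, limit what these libraries can show.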
